A study of Mus musculus with 11 samples.

Results

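Transcripts of 9 complement genes were followed in mononuclear phagocytes of the mouse epididymis, the long duct in which sperm mature and are stored. The genes were taken by name from the expression table of 37583 genes: the C1q chains C1qa, C1qb and C1qc, the plasma components C4b and C3, the alternative pathway genes Cfb and Cfp, and the receptors C3ar1 and C5ar1. All 9 were found, and 8 passed the filter on low counts, the exception being Cfb. The groups were 4 libraries of cells from the initial segments (IS, the part nearest the testis), 3 from the joined caput and corpus, and 4 from the cauda, the storage end of the duct. All mice were 12 weeks old and carried the CX3CR1 EGFP +/- genotype, in which EGFP is driven by the gene of the fractalkine receptor CX3CR1, so each region is compared with other regions of the same genotype and no wild-type group was analysed here. Each library was made from EGFP+ cells put through double cell sorting out of 4 epididymides. The labels do not say which animals a library came from, so the p-values below measure the spread between these samples. The series title asks how gene expression of these cells depends on where in the epididymis they sit.

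Complement is a cascade of secreted proteins that tags targets for uptake and recruits immune cells. C1q, built from equal numbers of A, B and C chains, recognises antibody, dying cells and other surfaces and starts the classical pathway, which cleaves C4 and then C3. The alternative pathway amplifies C3 cleavage through factor B, and properdin, the product of Cfp, stabilises its convertase. The fragments C3a and C5a act on cells through the receptors encoded by C3ar1 and C5ar1. Most plasma complement is made by liver, whereas C1q and properdin are made largely by myeloid cells, and C1q is a well-known product of tissue macrophages.

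The 11 libraries held 16873180 to 31737132 reads on genes, and their titles fall into a series Maj3 (5 libraries) and a series Maj4 (6 libraries), each with all 3 regions. For 3 samples the count file and the RPKM column (reads scaled to gene length and to library size) of the same name hold different reads. The values below follow the named columns, and with the counts as filed none of the 9 genes was called in any comparison. Cauda replicate 1 stood apart: 13434 genes had any read there, whereas 17053 to 18837 did in the other 10 libraries. Its reads equal those of no count file. The sorted lineage was present in all 3 regions: Csf1r, the receptor of the macrophage growth factor CSF1, averaged 630 ± 55.9 RPKM in IS, 426 ± 96.0 in caput/corpus and 287 ± 80.0 in cauda (SD, n = 4, 3 and 4), and Cx3cr1 averaged 212 ± 30.5, 112 ± 31.8 and 83.6 ± 13.4 RPKM in the same order. Adgre1, which encodes F4/80, averaged 254 ± 69.5 RPKM in IS, 218 ± 61.8 in caput/corpus and 155 ± 13.9 in cauda, and Ptprc, the pan-leukocyte antigen CD45, averaged 93.7 ± 9.97, 110 ± 14.7 and 122 ± 12.3 RPKM.

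C1qb, C1qc and C1qa lie next to each other, in this order, among the protein-coding genes of mouse chromosome 4 (RefSeq, GRCm38.p6). RefSeq's table held the promoters of 6 of the 9 genes, from 250 bases before to 50 bases after the start of transcription. Those of C1qb and C1qc, whose levels ran closely together, and of Cfp, the gene that ran the other way, are printed 5′ to 3′ on the strand of the gene. Capitals mark matches to 2 of 5 motifs searched on both strands, the purine-rich box GAGGAA and the C/EBP-type letters TTNCNNAA. All 3 genes are read from the minus strand, and the windows are chr4:136886151-136886450, chr4:136892865-136893164 and chrX:20931506-20931805.
C1qb: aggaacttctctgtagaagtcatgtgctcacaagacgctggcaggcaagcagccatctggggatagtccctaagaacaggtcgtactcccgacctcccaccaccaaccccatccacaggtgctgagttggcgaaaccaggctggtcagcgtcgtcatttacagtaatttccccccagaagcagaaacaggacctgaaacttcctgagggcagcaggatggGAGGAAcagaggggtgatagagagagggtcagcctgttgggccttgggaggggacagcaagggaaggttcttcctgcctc
C1qc: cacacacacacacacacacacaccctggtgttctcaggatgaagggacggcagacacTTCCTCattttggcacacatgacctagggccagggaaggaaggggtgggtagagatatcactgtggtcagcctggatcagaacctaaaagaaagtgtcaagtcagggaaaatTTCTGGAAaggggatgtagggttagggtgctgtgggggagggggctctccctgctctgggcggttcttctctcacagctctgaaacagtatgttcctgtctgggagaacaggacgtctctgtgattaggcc
Cfp: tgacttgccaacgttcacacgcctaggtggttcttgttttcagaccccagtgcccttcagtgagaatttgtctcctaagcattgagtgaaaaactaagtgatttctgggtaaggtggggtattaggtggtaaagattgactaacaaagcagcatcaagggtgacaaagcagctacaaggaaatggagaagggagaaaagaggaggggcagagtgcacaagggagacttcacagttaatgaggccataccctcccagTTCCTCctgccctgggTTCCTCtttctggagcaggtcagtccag

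The C1qb window holds GAGGAA from base -30, counted from the start of transcription. The C1qc window holds the box on the opposite strand, read as TTCCTC, from base -193, and a C/EBP-type match from base -81. The Cfp window holds TTCCTC from bases 7 and 23, inside the transcribed stretch. These matches are common: GAGGAA occurs in 28.3% and TTNCNNAA in 40.7% of the 32851 RefSeq promoter windows of this length. The AP-1 letters TGANTCA (7.81% of windows), the interferon response pair (3.44%) and the TATA box TATAAA (13.6%) matched none of the 3 windows printed. Among the windows not printed, C3ar1 holds TGACTCA from base -22 and TATAAA from base -235, C3 holds C/EBP-type matches from bases -70, -58 and -45 and TATAAA from base 15, and C5ar1 holds a C/EBP-type match from base -157. The matches do not overlap one another, except that the C3 match at base -45 reads on both strands.

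The C1q genes were among the most abundant transcripts of these cells per length, with means highest in IS, intermediate in caput/corpus and lowest in cauda; IS and cauda differed by the test for C1qa and C1qc. Ranked by mean RPKM over all genes, C1qb stood 12th in IS, 14th in caput/corpus and 17th in cauda, C1qa 16th, 20th and 25th, and C1qc 19th, 28th and 33rd. Together the chains took 1.27% ± 0.241 of the reads on genes in IS, 0.919% ± 0.295 in caput/corpus and 0.678% ± 0.103 in cauda (SD, n = 4, 3 and 4). These are bulk samples of sorted cells, in which fewer cells of a type and less RNA per cell cannot be told apart.

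C1qa (ENSMUSG00000036887), the A chain, read 3449, 3546, 3452 and 2711 RPKM in IS replicates 1 to 4, 2966, 2425 and 1836 in caput/corpus replicates 1 to 3, and 1371, 1836, 1978 and 1757 in cauda replicates 1 to 4. Every IS library lay above every cauda library, while caput/corpus spanned the gap between them. The log2 fold change of IS over cauda was 0.91 ± 0.17 (SE, adjusted p = 0.00434, edgeR quasi-likelihood test with Benjamini-Hochberg adjustment over 15116 genes, which gave every adjusted p below unless another test is named). IS over caput/corpus was 0.43 ± 0.18 (adjusted p = 0.284) and caput/corpus over cauda was 0.48 ± 0.18 (adjusted p = 0.302), so no difference of caput/corpus from its neighbours passed the test. The call between IS and cauda held in all 11 fits that left out 1 library (adjusted p 0.00322 to 0.0191), with 0.78 without cauda replicate 1. Within series it was 1.17 in Maj3 (adjusted p = 0.131) and 0.73 in Maj4 (adjusted p = 0.0621), and with the counts as filed it was 0.49 (adjusted p = 0.269).

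C1qc (ENSMUSG00000036896), the C chain, read 2758, 2991, 1918 and 1454 RPKM in the IS libraries, 2394, 1260 and 923 in caput/corpus, with 985, 1414, 1059 and 896 in cauda. IS and cauda did not overlap, although IS replicate 4 exceeded cauda replicate 2 by little. The log2 fold change of IS over cauda was 1.01 ± 0.19 (adjusted p = 0.00588), that of IS over caput/corpus 0.50 ± 0.21 (adjusted p = 0.289) and that of caput/corpus over cauda 0.51 ± 0.21 (adjusted p = 0.360). The call between IS and cauda held in all 11 fits without 1 library and was lost with no term for the title series (1.06, adjusted p = 0.0528), with the counts as filed (0.50, adjusted p = 0.355), and within Maj3 (1.31, adjusted p = 0.143) or Maj4 alone (0.79, adjusted p = 0.0637).

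C1qb (ENSMUSG00000036905), the B chain, was the most abundant of the 9 genes per length and showed the same order of means without passing the test. It read 5170, 5576, 3758 and 3160 RPKM in IS, 5003, 3226 and 2419 in caput/corpus, with 2209, 3574, 2817 and 2613 in cauda. Cauda replicate 2 lay above IS replicate 4, so the regions overlapped. The log2 fold change of IS over cauda was 0.61 ± 0.19 (adjusted p = 0.0540), that of IS over caput/corpus 0.24 ± 0.21 (adjusted p = 0.719) and that of caput/corpus over cauda 0.36 ± 0.20 (adjusted p = 0.537). Without cauda replicate 1 the IS over cauda value was 0.43 (adjusted p = 0.0394), and without caput/corpus replicate 3 it was 0.61 (adjusted p = 0.0493). It also passed by DESeq2 (0.66, adjusted p = 0.00270), with relative log expression scaling (adjusted p = 0.0362), with no filter (0.0389), with only both regions compared (0.0452) and with a replicate block (0.0380). It stayed uncalled in 16 of 23 alternatives, among them the counts as filed (0.19, adjusted p = 0.642) and no title series (0.65, adjusted p = 0.144). Others were Maj4 alone (0.35, adjusted p = 0.288) and the 8 libraries on which count files and columns match (0.41, adjusted p = 0.0710). Only 2 of the 11 edgeR fits without 1 library called it (adjusted p 0.0394 to 0.132).

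**Figure D1:**
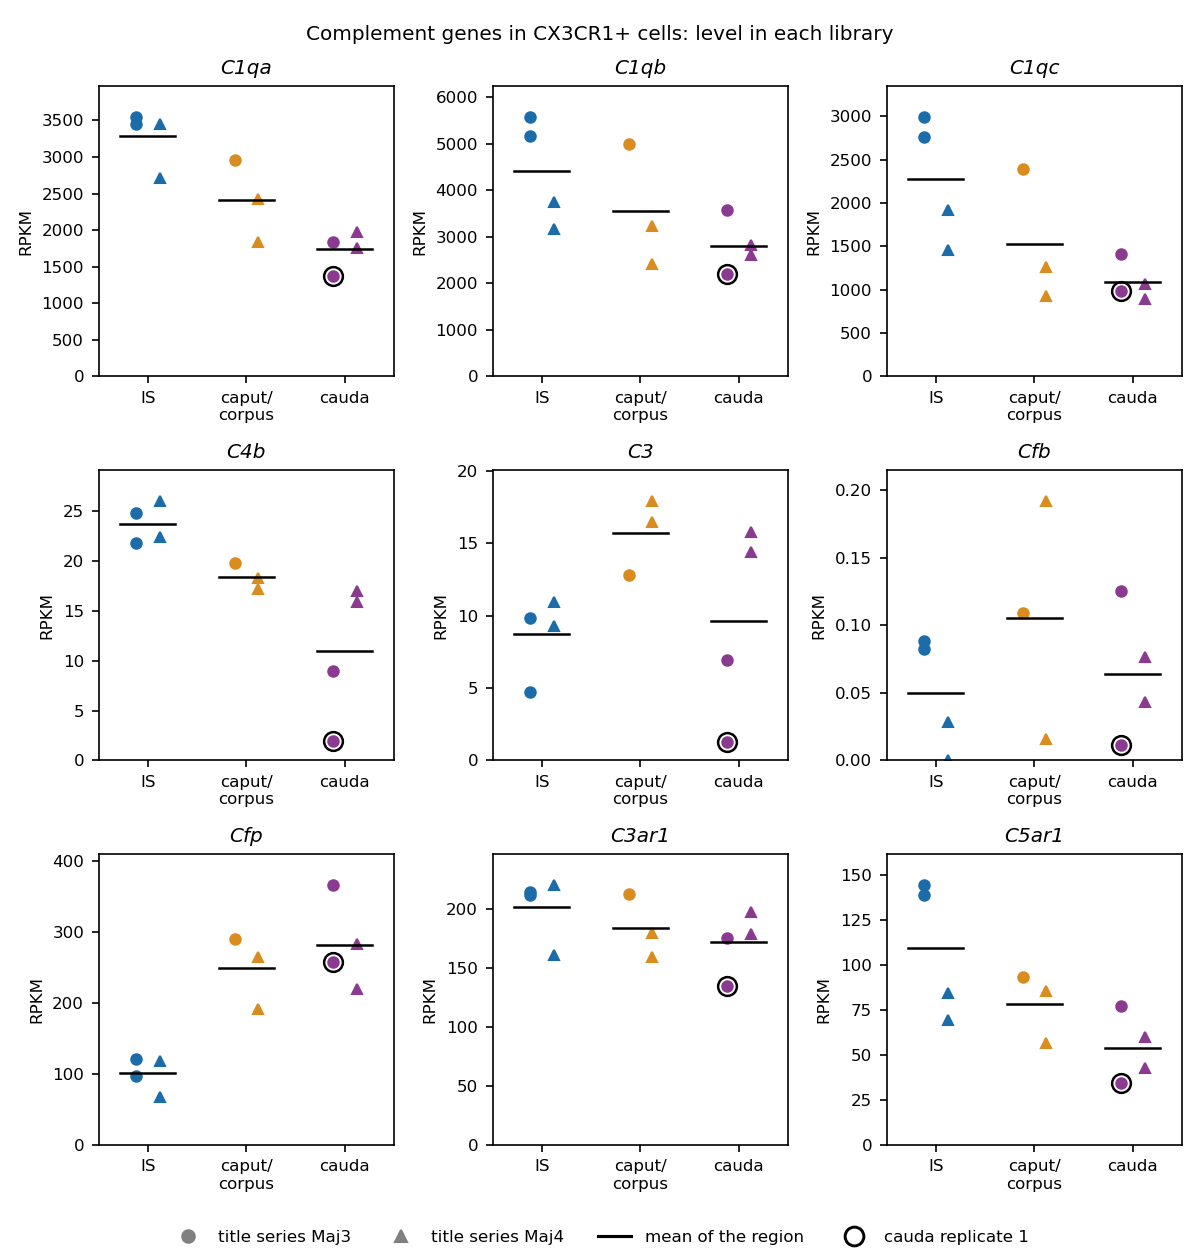
RPKM of each of the 9 complement genes (y axis, linear from 0) in IS, caput/corpus and cauda (x axis); each point is a library, circles are title series Maj3, triangles are Maj4, bars are region means and the ring marks cauda replicate 1. The 4 IS libraries lie above the 4 cauda libraries for C1qa, C1qc and C4b and below them for Cfp, and Cfb stays at or under 0.192 RPKM.

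The chains did not keep a fixed ratio across libraries, and the ratio of C1qc to C1qa followed the title series. These ratios were looked at after the levels had been seen and are given as a description. C1qc over C1qa, both in RPKM, lay between 0.719 and 0.844 in the 5 Maj3 libraries and between 0.503 and 0.556 in the 6 Maj4 libraries, whatever the region. In the fit, the Maj4 minus Maj3 term was -0.68 (log2) for C1qc (adjusted p = 0.0157), -0.47 for C1qb (adjusted p = 0.0655) and -0.10 for C1qa (adjusted p = 0.701), against a background of 20.3% of all tested genes called for the series. The C1qb to C1qa ratio was lowest in the IS libraries inside each series, with no test of the difference. In Maj3 it was 1.50 and 1.57 in IS, 1.69 in caput/corpus, with 1.61 and 1.95 in cauda. In Maj4 it was 1.09 and 1.17 in IS, 1.32 and 1.33 in caput/corpus, with 1.42 and 1.49 in cauda. Caput/corpus and cauda were separated in Maj4, while the Maj3 caput/corpus library lay between the Maj3 cauda libraries. The series is a label from the sample titles, and what differed between the series was not tested.

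Csf1r, the macrophage gene given above, was also called lower in cauda, and the ratio of C1qa to it overlapped between the regions. The C1qa to Csf1r ratio of RPKM values was 5.22 ± 0.414 in IS, 5.66 ± 0.740 in caput/corpus and 6.26 ± 1.04 in cauda (SD, n = 4, 3 and 4). The libraries ran from 4.80 to 5.63 in IS, 5.01 to 6.47 in caput/corpus and 5.36 to 7.60 in cauda, where the top value was cauda replicate 1. For IS over cauda the log2 fold change was 1.14 for Csf1r (adjusted p = 0.0047), 1.34 for Cx3cr1 (adjusted p = 0.00101) and 0.66 for Adgre1 (adjusted p = 0.0168), while Ptprc was at -0.40 (adjusted p = 0.0493). Of the 8 macrophage markers, 6 were called higher and 1 lower in IS than in cauda, and their summed level was 7069 to 8288 reads scaled to library size (CPM) in IS, 5266 to 7190 in caput/corpus and 4344 to 5292 in cauda. The 8 perivascular resident macrophage markers summed to 2383 to 3050 CPM in IS, 2088 to 2388 in caput/corpus and 1010 to 2685 in cauda, with 1 called higher and 2 lower in IS than in cauda. For both lists the lowest cauda sum was that of cauda replicate 1. The part of these marker differences in the C1q differences was not tested.

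**Figure D2:**
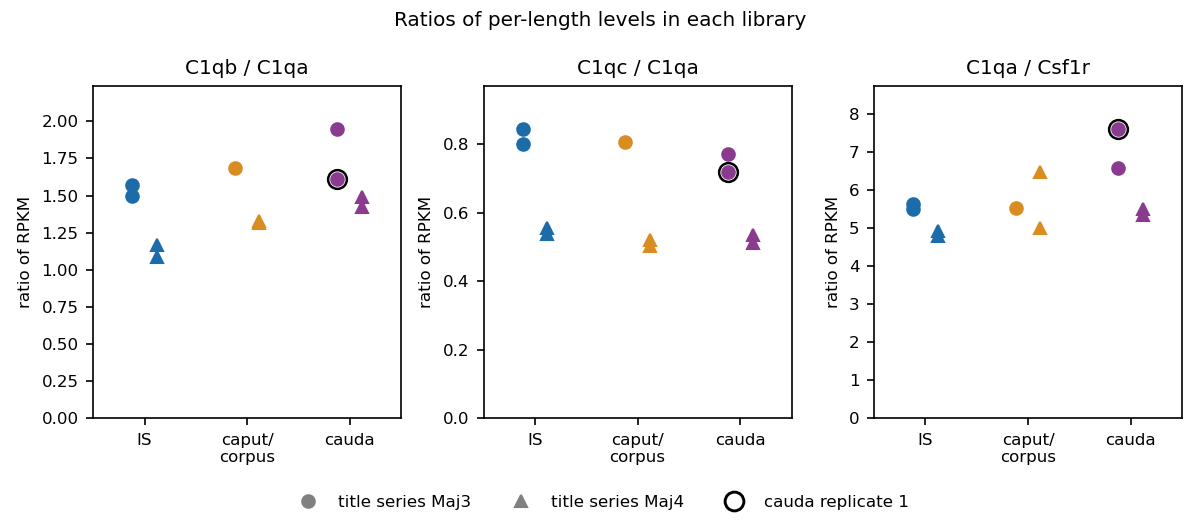
Ratios of RPKM values (y axes, from 0) in each library by region (x axes), for C1qb over C1qa, C1qc over C1qa and C1qa over Csf1r; circles are title series Maj3, triangles Maj4, and the ring marks cauda replicate 1. C1qc over C1qa separates the series (0.719 to 0.844 in Maj3, 0.503 to 0.556 in Maj4), and C1qb over C1qa is lowest in IS and highest in cauda inside Maj4.

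Downstream of C1q, transcripts of C4b and C3 were present at levels far below those of the C1q chains. C4b (ENSMUSG00000073418), the complement C4 gene cleaved by the classical pathway, read 21.8, 24.9, 22.4 and 26.0 RPKM in IS, 19.8, 17.2 and 18.3 in caput/corpus, with 1.94, 8.98, 17.0 and 15.9 in cauda. The 3 regions did not overlap one another, with IS highest and cauda lowest. The log2 fold changes were 1.25 ± 0.46 for IS over cauda (adjusted p = 0.0918), 0.44 ± 0.48 for IS over caput/corpus (adjusted p = 0.816) and 0.82 ± 0.47 for caput/corpus over cauda (adjusted p = 0.558), so no difference passed the test. Without cauda replicate 1 the IS over cauda difference was 0.83 (adjusted p = 0.0108), and in the 8 libraries on which count files and columns match it was 0.80 (adjusted p = 0.0136). With all 11 libraries DESeq2 gave 1.31 (adjusted p = 0.0114) and limma on log2(RPKM + 1) gave 1.35 (adjusted p = 0.0389). The IS over cauda difference stayed uncalled in 19 of 23 alternatives. Among these were the counts as filed (0.37, adjusted p = 0.544, edgeR) and Maj4 alone (0.56, adjusted p = 0.0805, edgeR). Of the 11 edgeR fits without 1 library, 1 called C4b (adjusted p 0.0108 to 0.183). Its near-identical paralog C4a never exceeded 0.249 RPKM. The count files set reads not aligned uniquely apart, so reads that align to both genes may be missing, and C4b levels are uncertain to that extent.

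C3 (ENSMUSG00000024164), the component on which all pathways meet, was highest in caput/corpus. It read 4.76, 9.82, 9.32 and 11.0 RPKM in IS, 12.8, 16.5 and 17.9 in caput/corpus, with 1.28, 6.97, 15.8 and 14.4 in cauda. Every caput/corpus library lay above every IS library, while cauda ran from below every IS library to above the lowest caput/corpus library. The log2 fold changes were -0.71 ± 0.51 for IS over caput/corpus (adjusted p = 0.641), 0.07 ± 0.48 for IS over cauda (adjusted p = 0.942) and 0.78 ± 0.51 for caput/corpus over cauda (adjusted p = 0.617). In the 8 libraries without a conflict, which hold no caput/corpus library of Maj3, C3 was called lower in IS than in both other regions. The values were -0.76 against caput/corpus (adjusted p = 0.0227) and -0.57 against cauda (adjusted p = 0.0189). The call against caput/corpus was made in 1 of 23 alternatives, and none of the 11 fits without 1 library made either call. The value against cauda turned direction from the fit of all libraries, and without cauda replicate 1 alone it was -0.35 (adjusted p = 0.330).

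The alternative pathway genes stood at opposite ends. Cfb (ENSMUSG00000090231), which encodes the protease factor B, was close to absent: the libraries held 7, 7, 0 and 2 reads in IS, 9, 12 and 1 in caput/corpus, with 1, 11, 4 and 3 in cauda, at most 0.192 RPKM. It did not pass the filter and was not tested. Of its 2825 exon bases in GENCODE M21, 79.5% are shared with the overlapping gene Gm20547, which had 0 reads in every library, and HTSeq by default assigns no read in a shared stretch. The settings and annotation behind the counts are not given in the sources used here, so the low count of Cfb is uncertain.

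Cfp (ENSMUSG00000001128), which encodes properdin, was the one gene of the 9 that was lower in IS than in both other regions by the test. It read 96.3, 120, 67.5 and 119 RPKM in IS, 290, 265 and 191 in caput/corpus, with 258, 366, 219 and 284 in cauda. All 4 IS libraries lay below all 7 others. Mean levels were 101 ± 24.6 RPKM in IS, 249 ± 51.6 in caput/corpus and 282 ± 62.0 in cauda (SD, n = 4, 3 and 4). The log2 fold change was -1.35 ± 0.21 for IS over caput/corpus (adjusted p = 0.00711) and -1.49 ± 0.20 for IS over cauda (adjusted p = 0.000801), which is 2.56-fold and 2.80-fold lower in IS. Caput/corpus and cauda were at -0.13 ± 0.21 (adjusted p = 0.891) and overlapped. Both calls held in all 11 fits without 1 library, at adjusted p up to 0.0389 and 0.00470. With the counts as filed they were -0.78 (adjusted p = 0.653) and -1.30 (adjusted p = 0.0993), so neither passed the test. Within Maj4 the values were -1.30 (adjusted p = 0.0666) and -1.43 (adjusted p = 0.0308), and within Maj3 -1.45 (adjusted p = 1.00) and -1.48 (adjusted p = 0.127).

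Summed markers of monocytes, conventional dendritic cells and mast cells were, like Cfp, lower in every IS library than in any library of the other regions. The 8 monocyte markers summed to 674 to 1610 CPM in IS, 2900 to 4078 in caput/corpus and 3978 to 4749 in cauda, and 6 of them were called lower in IS than in caput/corpus and 7 lower than in cauda. The 10 conventional dendritic cell markers summed to 457 to 823 CPM in IS, 1826 to 2270 in caput/corpus and 1783 to 3381 in cauda, with 6 and 7 called lower in IS. The 8 mast cell markers summed to 41.9 to 122 CPM in IS, 795 to 1158 in caput/corpus and 1162 to 4224 in cauda, all 8 called lower in IS in both comparisons. None of these 3 lists had a gene at 0 in all libraries. The highest cauda sums of the monocyte and dendritic cell lists were those of cauda replicate 1. Neutrophil markers were near absent, with none of 6 passing the filter and Ly6g and S100a9 at 0 throughout. The part of these cells in the Cfp difference was not tested. C1qa over Cfp, in RPKM, was 22.9 to 51.2 in IS, 9.15 to 10.2 in caput/corpus and 5.02 to 9.03 in cauda, so the regions did not overlap for this ratio, which was chosen after the levels had been seen.

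The receptors for the cleavage fragments both stood well above C3 and C4b. C3ar1 (ENSMUSG00000040552), the receptor of C3a, read 214, 212, 161 and 220 RPKM in IS, 213, 159 and 180 in caput/corpus, with 135, 176, 198 and 179 in cauda. The regions overlapped, with means of 202 ± 27.6, 184 ± 27.3 and 172 ± 26.4 RPKM in that order (SD, n = 4, 3 and 4). Its log2 fold changes were 0.12 for IS over caput/corpus (adjusted p = 0.872), 0.23 ± 0.15 for IS over cauda (adjusted p = 0.367) and 0.10 for caput/corpus over cauda (adjusted p = 0.883).

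C5ar1 (ENSMUSG00000049130), the receptor of C5a, read 139, 144, 84.3 and 69.0 RPKM in IS, 92.9, 85.6 and 56.5 in caput/corpus, with 34.5, 77.3, 59.8 and 42.4 in cauda. IS replicate 4 lay below cauda replicate 2, so the regions overlapped. IS over cauda was called, at a log2 fold change of 0.96 ± 0.26 (adjusted p = 0.0314), and IS over caput/corpus (0.35 ± 0.29, adjusted p = 0.704) and caput/corpus over cauda (0.61 ± 0.28, adjusted p = 0.430) were not. The call was lost without IS replicate 1 (adjusted p = 0.0803), 2 (0.0804) or 3 (0.0695), without caput/corpus replicate 1 (0.0510), without cauda replicate 4 (0.0822), in the 8 libraries without a conflict (0.67, adjusted p = 0.0510) and with no title series (1.02, adjusted p = 0.0578). Without cauda replicate 1 it was 0.72 (adjusted p = 0.0185). Within series it was 1.39 in Maj3 (adjusted p = 0.308) and 0.59 in Maj4 (adjusted p = 0.220), with 0.51 for the counts as filed (adjusted p = 0.202). The authors' length for C5ar1 is 4912 bases, whereas its exons span 2570 bases in GENCODE M21, which bears on its level in RPKM but not on the fold changes. C5ar1 over C3ar1, in RPKM, averaged 0.541 ± 0.166 in IS, 0.429 ± 0.112 in caput/corpus and 0.309 ± 0.0919 in cauda.

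Counted together, most of the calls among the 9 genes lay between the ends of the duct. The same held over all tested genes, with 2488 called between IS and cauda, 571 between IS and caput/corpus and 93 between caput/corpus and cauda. Between IS and cauda, 3 of the 8 tested were called higher in IS (C1qa, C1qc and C5ar1) and 1 lower (Cfp), where 16.5% of all 15116 tested genes were called, 7.40% higher and 9.06% lower. Between IS and caput/corpus 1 was called, Cfp, lower in IS, where 3.78% of all genes were called and 2.98% were lower in IS. Between caput/corpus and cauda edgeR called 0 of the 8, where 0.615% of all genes were called, and DESeq2 and limma called 0 of the 8 too. By edgeR 2 of the 8 had an unadjusted p under 0.05, beside 1772 of all 15116. The median log2 fold change of the 8 was 0.30, 0.76 and 0.49 in these comparisons (IS over caput/corpus, IS over cauda, caput/corpus over cauda), beside 0.02, 0.05 and 0.02 over all tested genes. The libraries of the regions did not overlap for 3 of the 8 between IS and caput/corpus (14.4% of all genes), 4 between IS and cauda (18.7%) and 1 between caput/corpus and cauda (9.64%). Without cauda replicate 1, 6 of the 8 were called between IS and cauda, C1qb and C4b being added. Calls over all genes rose in that fit too, to 3124 of 14996 tested from 2488 of 15116.

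**Figure D3:**
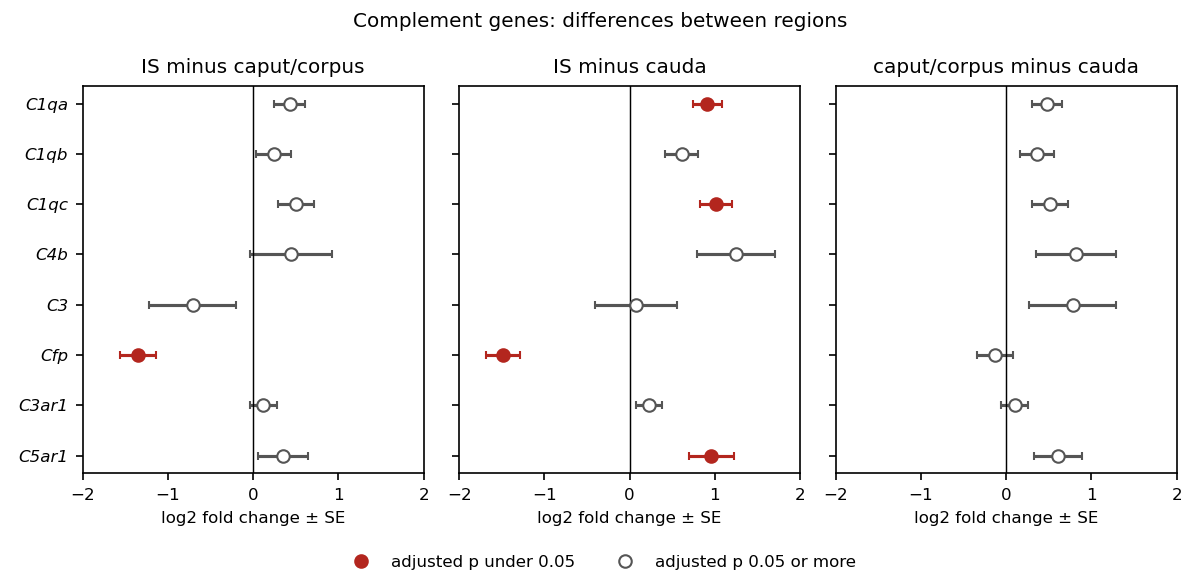
Log2 fold change with its standard error (x axis) of the 8 tested complement genes (rows) in the 3 comparisons (panels); filled red points have an adjusted p under 0.05. Cfp is lower in IS in both panels that hold IS, C1qa, C1qc and C5ar1 are higher in IS than in cauda, and no point is filled for caput/corpus minus cauda.

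Beyond the 9 genes, 52 further complement genes were followed in 5 lists by role: initiation, terminal components, regulators, receptors and the C1q-binding pentraxins. Of these, 30 passed the filter, 27 stayed under 1 RPKM in every library and 9 had 0 reads throughout. Between IS and cauda 7 of the 30 were called, 4 higher and 3 lower in IS, where 16.5% of all tested genes were called, and the median log2 fold change was 0.33, beside 0.05 over all tested genes. With the counts as filed 0 of the 30 were called between IS and cauda, and within Maj3 alone 0 of 32 tested. In each of these fits 5 had an unadjusted p under 0.05, beside 3098 of 15198 and 2036 of 16119 genes. DESeq2 on the named columns called 10 of the 30, beside 3595 of all 15116. Between caput/corpus and cauda 1 was called, where 0.615% of all tested genes were called. Between IS and caput/corpus edgeR called 0, where 3.78% of all tested genes were called. In that comparison 5 of the 30 had an unadjusted p under 0.05, beside 2282 of all 15116. DESeq2 called 2 there, beside 1262 of all 15116. All 3 pentraxin genes had 0 reads, and none of the 3 tested terminal genes was called between IS and cauda.

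Among the initiators, Fcna (ENSMUSG00000026938), which encodes ficolin A, a lectin pathway sensor, was called lower in IS than in cauda. It read 3.59, 4.38, 1.65 and 4.79 RPKM in IS, 24.2, 23.0 and 4.93 in caput/corpus, with 13.2, 49.4, 44.3 and 35.2 in cauda. Every IS library lay below every library of the other regions. The log2 fold change of IS over cauda was -3.32 ± 0.59 (adjusted p = 0.0038), and that of IS over caput/corpus was -2.29 (adjusted p = 0.0654). The call against cauda held in all 11 fits without 1 library and was lost with the counts as filed (-2.87, adjusted p = 0.0969) and within Maj3 (adjusted p = 0.240).

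Of the 10 receptor genes, 1 was called higher and 2 lower in IS than in cauda, where 7.40% of all tested genes were called higher and 9.06% lower. C5ar2, the second C5a receptor and the genomic neighbour of C5ar1, averaged 11.4 ± 6.19 RPKM in IS, 7.68 ± 2.90 in caput/corpus and 4.87 ± 3.53 in cauda (SD, n = 4, 3 and 4), with a log2 fold change of IS over cauda of 1.30 ± 0.39 (adjusted p = 0.0465). Its call was kept in 2 of the 11 fits without 1 library (adjusted p 0.00426 to 0.116). Itgb2, the beta chain shared by complement receptors 3 and 4, averaged 199 ± 11.8 RPKM in IS, 239 ± 8.47 in caput/corpus and 289 ± 36.9 in cauda (IS over cauda -0.54 ± 0.09, adjusted p = 0.00271). C1qbp, a mitochondrial protein that also binds C1q, averaged 33.8 ± 7.63, 38.9 ± 4.16 and 45.2 ± 7.01 RPKM (-0.44 ± 0.11, adjusted p = 0.0203), a call kept in 6 of the 11 such fits. The alpha chains Itgam (97.7 RPKM in IS, 78.2 in caput/corpus, 84.1 in cauda) and Itgax (34.9, 37.2 and 30.6) were not called, nor were Cd93 (12.4, 13.8 and 15.7), the scavenger receptor Lrp1 (38.5, 35.4 and 40.3) and its C1q-binding partner Calr (212, 215 and 205).

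The regulators that were called all lay higher in IS than in cauda. C4bp, the inhibitor that binds C4b protein, had 1303 reads over the IS libraries and 841 over caput/corpus, against 1 read over the 4 cauda libraries. The ratio of pooled reads, scaled to library size, was 1319 for IS over cauda (exact 95% counting interval 236 to 52131) and 1198 for caput/corpus over cauda (214 to 47369). The edgeR log2 fold changes were 9.57 ± 1.01 for IS over cauda (adjusted p = 0.000246) and 9.88 ± 1.03 for caput/corpus over cauda (adjusted p = 0.00175). These values rest on the named columns. The counts filed for cauda replicate 1 are those of the caput/corpus replicate 1 column, which holds 263 C4bp reads, and with the counts as filed neither C4bp difference passed the test (adjusted p = 0.316 and 0.760). Susd4, a membrane regulator, had 55, 264, 75 and 79 reads in the IS libraries and 50, 1 and 51 in those of caput/corpus. Pooled, Susd4 had 473 reads in IS and 102 in caput/corpus, against 1 in cauda (ratio of IS over cauda 479, interval 85.5 to 18949). Its edgeR log2 fold change of IS over cauda was 8.18 ± 1.51 (adjusted p = 0.00478), and this call too was lost with the counts as filed (adjusted p = 0.30). Clu, which encodes clusterin, an abundant secreted protein of the epididymal epithelium that also restrains the terminal complex, read 6.72, 152, 18.7 and 19.8 RPKM in IS, 33.4, 38.8 and 52.4 in caput/corpus, with 0.02, 3.12, 0.91 and 1.60 in cauda. Its log2 fold change of IS over cauda was 4.91 ± 1.17 (adjusted p = 0.0174), and without IS replicate 2 it was 3.23 (adjusted p = 0.0547) and with the counts as filed 1.54 (adjusted p = 0.465). Cr1l, the rodent membrane regulator Crry (41.5, 42.8 and 40.0 RPKM), and Serping1, the C1 inhibitor (12.3, 20.2 and 2.95), were not called.

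The 12 epididymal epithelium markers summed to 1319 to 3181 CPM in IS, 348 to 558 in caput/corpus and 3.76 to 6.95 in cauda, all 12 called higher in IS than in cauda and 8 higher in caput/corpus than in cauda. Between IS and caput/corpus 7 were called higher and 1 lower in IS, where C4bp (-0.31, adjusted p = 0.946), Clu (-0.20, adjusted p = 0.978) and Susd4 (1.69, adjusted p = 0.614) were not called. No gene of this list was at 0 in all libraries. The 8 markers of stroma and endothelium summed to 36.4 to 434 CPM in IS, 56.4 to 403 in caput/corpus and 14.2 to 83.3 in cauda, with 1 called higher in IS than in cauda. The lowest of these cauda sums was that of cauda replicate 1. The part of these cells in the C4bp, Susd4 and Clu differences was not tested.

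**Figure D4:**
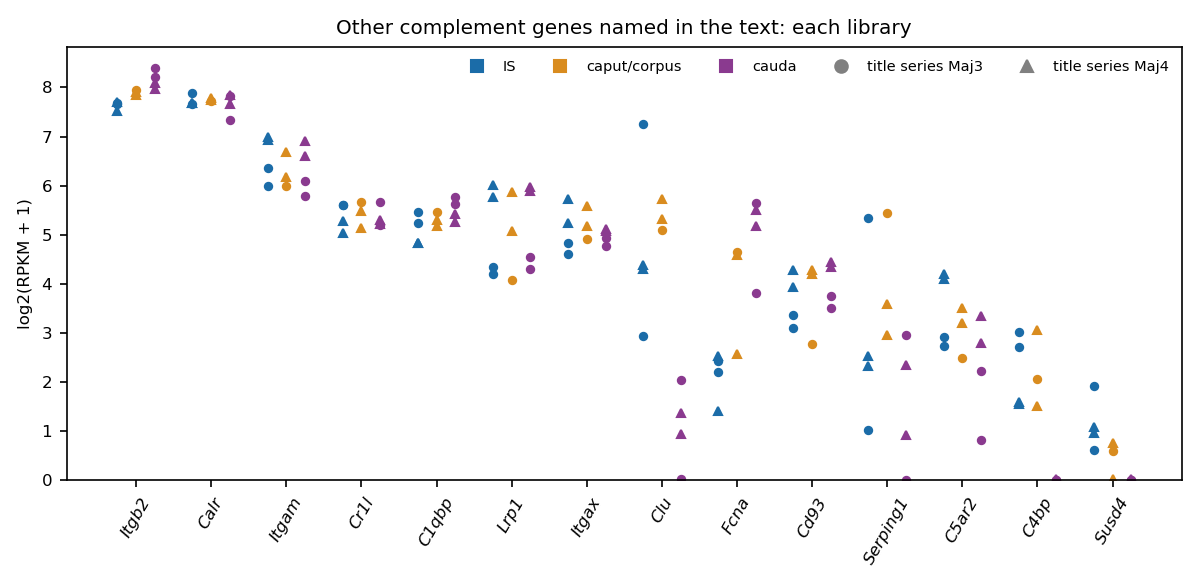
Level of the further complement genes named in the text, as log2(RPKM + 1) (y axis), in each library of IS, caput/corpus and cauda (colours, left to right within a gene); circles are title series Maj3 and triangles Maj4. Fcna and Itgb2 lie lowest in IS, while C4bp and Susd4 lie at or near 0 in cauda.

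The genes whose levels ran most like each of the 8 were read from log2(CPM + 1) over the 11 libraries, as a description. Libraries of a region or title series share what sets them apart, and cauda replicate 1 alone can raise such values. Nearest to C1qa were Fam3c (Pearson r = 0.99), Pld3 (0.99) and Peli1 (0.98). C1qb ran with Nars, Fcgr3 and Pea15a (0.97 each), and C1qc with Ctsb (0.99), Fcgr3 (0.98) and Gna15 (0.97). C5ar1 ran with Serinc3 (0.97), Selenop (0.96) and Ccl12 (0.96), and Cfp with Wfdc17, Hopx and Gm2a (0.97 each). For these 5 genes the values without cauda replicate 1 were 0.95 to 0.99. C4b ran with Bcl2l1, Tlr4 and Xylt2 (0.98 each, but 0.90, 0.87 and 0.88 without cauda replicate 1). C3 ran with Btbd2 (0.97) and Zdhhc23 (0.95), and these were 0.89 and 0.82 without that library. C3ar1 ran with Hook1 (0.94), Ighj1 (0.92) and Mis12 (0.91). Among the 8 themselves, C1qb and C1qc lay closest (0.97), and C5ar1 ran with C1qa, C1qb and C1qc at 0.88, 0.93 and 0.90. Cfp ran against C1qa, C1qb and C1qc at -0.73, -0.40 and -0.53.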

How the data were processed

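RNA sequencing libraries of sorted CX3CR1+ cells were prepared with the Clontech SMARTER v4 kit after PicoRNA extraction and read on a HiSeq2500, per the labels' protocols. STAR, HTSeq, edgeR and the mouse build mm9 are named in the submitters' processing notes, with no versions or settings. The authors deposited read counts per Ensembl gene, 1 file per sample and not stranded per the file names, and a table of RPKM values with gene lengths and a column per sample. Lines of the count files that name no gene were left out. Reads not aligned uniquely made 27.6% to 35.8% in the Maj3 files and 12.5% to 14.7% in the Maj4 files. Reads on no gene made 7.75% to 11.3% in the Maj3 files and 18.6% to 24.8% in the Maj4 files.

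Each deposited RPKM value times its gene length was a whole multiple of 1 step per column, for all 37583 genes in all 11 columns (tolerance 0.001), and the whole reads recovered this way were tested. For 8 of 11 samples these reads match the sample's own counts. Of the other 3 files, the counts filed for IS replicate 2 match no column, those for caput/corpus replicate 1 match the IS replicate 2 column, and those for cauda replicate 1 match the caput/corpus replicate 1 column. Named columns were used: 10 of the 11 read sets match some deposited counts, and cauda replicate 1 rests on RPKM alone.

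Tests were edgeR quasi-likelihood tests (edgeR 4.0.16, R 4.3.3) over the 11 libraries jointly, adjusting for title series, after TMM scaling; filterByExpr kept 15116 genes. Calls needed an adjusted p under 0.05. The procedure was tested on simulated data. Alternatives included DESeq2 1.42.0 and limma 3.58.1 on log2(RPKM + 1) and log2(RPKM + 0.1). CPM was computed from the reads and the TMM library sizes. Counting intervals are exact at 95% and leave out all but counting error, as PCR copies could not be told from molecules.

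The members and lists were chosen with earlier results of these data known. Named were all 9 genes, further complement genes called in any comparison or above 10 RPKM on average, the 3 genes nearest to each of the 9 that passed the filter, and 4 identity markers; not every gene this rule gives is reported here. Same-numbered libraries within a title series did not deviate together (r of -0.04 to 0.08), so they were not treated as pairs. Symbols came from GENCODE M21 (32860 of 37583 identifiers) and promoters from RefSeq, GRCm38.p6; no mm9 coordinates were used.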

Additional observations from a re-analysis of the deposited data

Results flagged for a closer look

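In 2 of 18 sets of 4 libraries (IS or cauda, 9 genes each), 1 library stood far from the other 3, by a gap over Dixon's critical ratio for 4 samples; chance gives about 1 in 20. C1qa in IS replicate 4 was 2711 RPKM, against 3449 to 3546 in the other IS libraries, and the call between IS and cauda held without it (log2 0.99, adjusted p = 0.00696, edgeR). C3ar1 in IS replicate 3 was 161 RPKM, against 212 to 220 in the other IS libraries, and without it the IS over cauda difference was 0.33 (adjusted p = 0.199, edgeR).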

How the results depend on the processing

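Of 736 values of single genes under alternatives, 648 kept direction and side of the threshold, 62 lost and 12 gained the call and 14 turned direction; the cause was not tested. C3, IS over cauda (0.07), was -0.26 with the counts as filed, -0.57 in the 8 libraries without a conflict, -0.15 with no title series, -0.57 in Maj4 alone, -0.24 without IS replicate 2 and -0.35 without cauda replicate 1 (-0.35 to 0.25 over the fits without 1 library). C3ar1, caput/corpus over cauda (0.10), was -0.03 as filed, -0.10 in the 8 libraries, -0.14 in Maj4, -0.04 without caput/corpus replicate 1 and -0.00 without cauda replicate 1 (-0.04 to 0.21), and IS over caput/corpus was -0.03 in Maj3. As filed, IS over caput/corpus was -0.01 for C4b and -0.07 for C5ar1. Of the 9 complement genes, those called for IS over caput/corpus (1) were 0 as filed and in Maj3 or Maj4 alone, 2 in the 8 libraries and 1 in each fit without a library. For IS over cauda (4) they were 0 as filed and in Maj3, 2 with no title series, 1 in Maj4 and 3 to 6 without a library. For caput/corpus over cauda they were 0 throughout. Genes called for IS over caput/corpus (571) were 0 as filed (1166 at an unadjusted p under 0.05) and in Maj3 (404), 954 in the 8 libraries, 1262 by DESeq2 (37.0% of them higher in IS, against 120 of 571), 934 by limma on log2(RPKM + 1), 233 with no title series, 914 with only both regions and 234 to 1353 without a library. For IS over cauda (2488) they were 4 as filed, 1481 with no title series, 30 in Maj3, 1144 in Maj4 and 1641 to 3124. For caput/corpus over cauda (93) they were 0 as filed (992 at an unadjusted p under 0.05), 52 in the 8 libraries, 637 by DESeq2, 143 and 188 by limma with pseudocounts of 1 and 0.1, 184 with no filter, 8 with only both regions, 5 in Maj3, 28 in Maj4 and 29 to 205. With the number inside a title series as a replicate block, 398, 2362 and 41 genes and 1, 5 and 0 of the 9 were called in these comparisons, C1qb (adjusted p = 0.0380) being added. In the fit of all 11 libraries Cfb did not pass the filter and was not compared.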
